A study of Mus musculus with 20 samples.

Results

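Aquaporins are membrane channels that let water pass along an osmotic gradient. Some members, among them AQP3, AQP7 and AQP9, also carry glycerol and are called aquaglyceroporins, and AQP11 is an unorthodox member found largely on intracellular membranes such as the endoplasmic reticulum. In the uterus, aquaporins of the epithelium, vessels and muscle take part in moving water, and the fluid of the lumen is resorbed around the time when embryos attach, a step that also depends on sodium and chloride channels of the epithelium. The 9 genes described here were chosen by symbol: *Aqp1*, *Aqp2*, *Aqp3*, *Aqp4*, *Aqp5*, *Aqp7*, *Aqp8*, *Aqp9* and *Aqp11*, of 45777 genes listed. Of these, 6 were above 0 TPM (transcript abundance scaled for length and library total) in all 20 libraries and could be tested among 18706 such genes, and the other 3 (*Aqp2*, *Aqp4* and *Aqp7*) are described by their levels only.

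RNA was sequenced from the uterus of 20 wild-type B6D2F1 females aged 8 to 12 weeks, with 5 mice in each of 4 groups and 1 library per mouse. All had mated, with the plug morning counted as day 0.5, and all uteri were taken at 18:00 on day 3.5. Control mice received no treatment. IF (implantation failure) mice received RU486, an antagonist of the progesterone and glucocorticoid receptors, under the skin on the morning of day 3.5. PBMC mice received the same RU486 and, on day 1.5, an injection into the uterine cavity of peripheral blood mononuclear cells (PBMCs) that had been cultured without hCG, and PBMC-hCG mice received RU486 and PBMCs cultured with hCG, the human chorionic gonadotropin. The cells came from non-pregnant mice, and the labels name no intrauterine injection in the control and IF groups, so that effects of the cells and of the injection cannot be told apart here. A vehicle injection of the control mice is not named either, so effects of RU486 and of its injection cannot be told apart.

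TPM allow for transcript length, so levels of different genes can be compared, but the number of reads behind a value is unknown. Differences are log2 fold changes of TPM + 0.1 from a limma fit of all 4 groups, given with the standard error (SE), and p-values were adjusted over all 18706 genes tested. A gene was called where the adjusted p was under 0.05. The markers of uterine epithelium, stroma and smooth muscle were present in every library, with summed levels of 805 to 1566, 3926 to 9239 and 3478 to 8489 TPM over the groups. Markers of the embryo summed to at most 0.304 TPM, those of the oviduct to 39.5 to 71.8 TPM and those of the ovary to 10.5 to 23.2 TPM. Control replicate 2 stood apart in several measures, with the highest summed markers of glands (23928 TPM) and of adipose tissue (459 TPM) and the lowest of endothelium (379 TPM), and where leaving it out changed a call of a member, that is given beside the result.

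The 4 members with the highest levels lie on 3 chromosomes (mouse genome GRCm38, NCBI annotation). *Aqp1* spans chr6:55336299-55348555, *Aqp5* chr15:99591028-99594829, *Aqp8* chr7:123462294-123468003 and *Aqp11* chr7:97726379-97738247. *Aqp5* sits in a cluster of aquaporin genes, with *Aqp2* at 6482 bases on its left and *Aqp6* at 3638 bases on its right, and the long non-coding RNA *Gm34765* is annotated over all of them. *Aqp3* and *Aqp7*, both aquaglyceroporin genes, are neighbours on chromosome 4, with 44486 bases between them. The 250 bases before the start of each of the 4 genes, as RefSeq gives them, are shown because these 4 genes had the highest levels. Capitals mark GGGCGG (a GC box) and the steroid receptor half-sites AGGTCA and TGTTCT and the TATA box TATAAA, searched on both strands.
Aqp1, chr6:55336049-55336298, plus strand: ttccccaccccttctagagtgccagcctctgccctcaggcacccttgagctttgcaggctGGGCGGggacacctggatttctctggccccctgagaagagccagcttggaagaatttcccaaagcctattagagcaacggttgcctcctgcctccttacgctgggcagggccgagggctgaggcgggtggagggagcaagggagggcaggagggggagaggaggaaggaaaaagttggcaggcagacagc
Aqp5, chr15:99590778-99591027, plus strand: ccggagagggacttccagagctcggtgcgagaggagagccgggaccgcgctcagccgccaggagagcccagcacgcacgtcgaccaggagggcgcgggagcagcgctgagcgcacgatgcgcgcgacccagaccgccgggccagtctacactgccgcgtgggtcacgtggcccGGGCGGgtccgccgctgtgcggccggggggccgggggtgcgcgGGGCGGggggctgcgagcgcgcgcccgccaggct
Aqp8, chr7:123462044-123462293, plus strand: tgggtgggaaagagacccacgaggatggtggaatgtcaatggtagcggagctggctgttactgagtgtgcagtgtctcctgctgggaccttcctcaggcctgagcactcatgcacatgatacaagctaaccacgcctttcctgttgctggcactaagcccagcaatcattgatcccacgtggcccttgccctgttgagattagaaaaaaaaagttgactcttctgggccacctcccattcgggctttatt
Aqp11, chr7:97738248-97738497, minus strand: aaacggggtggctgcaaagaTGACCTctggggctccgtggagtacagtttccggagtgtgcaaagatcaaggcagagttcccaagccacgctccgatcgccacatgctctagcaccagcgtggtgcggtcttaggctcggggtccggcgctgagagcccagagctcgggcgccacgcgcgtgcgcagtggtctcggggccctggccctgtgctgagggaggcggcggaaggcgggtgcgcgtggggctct
The *Aqp1* stretch held 1 GC box and the *Aqp5* stretch held 2, and GGGCGG was found in 32.7% of 32851 stretches of this kind. *Aqp11* held the estrogen half-site on the opposite strand (TGACCT), 230 to 225 bases before its start, and the half-site was found in 14% of all stretches. *Aqp8* held none of the marked motifs and had the lowest GC content (52.4%), and *Aqp5* the highest (78.4%). None of these 4 stretches held TGTTCT, which was found in 16.1% of all stretches, and none held TATAAA (12.4% of all) or CCAAT (33.8% of all).

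The uterus expressed a few aquaporins at high level. Averaged over the 20 mice, *Aqp1* was highest at 365 TPM, followed by *Aqp5* at 97.5 TPM, *Aqp8* at 71.5 TPM, *Aqp11* at 13.8 TPM, *Aqp9* at 2.48 TPM and *Aqp3* at 0.621 TPM. *Aqp1* was above every other member in each mouse, with the smallest gap to *Aqp8* in control replicate 2, at 385 against 356 TPM. The 3 members that were not tested were near 0. *Aqp7*, the glycerol channel of fat cells, was above 0 in 7 of 20 libraries and reached at most 0.342 TPM, in control replicate 2, the library with the highest adipose markers. *Aqp2*, the channel that vasopressin regulates in the kidney collecting duct, was above 0 in 3 libraries, at most 0.126 TPM, and the vasopressin receptor gene *Avpr2* was listed at 0 in all 20. *Aqp4*, the main aquaporin of the brain, was above 0 in 10 libraries, at most 0.0734 TPM. Of the remaining genes of the family, *Mip* was listed at 0 in every library, *Aqp6* reached at most 0.0660 TPM and *Aqp12* at most 0.261 TPM.

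**Figure D1:**
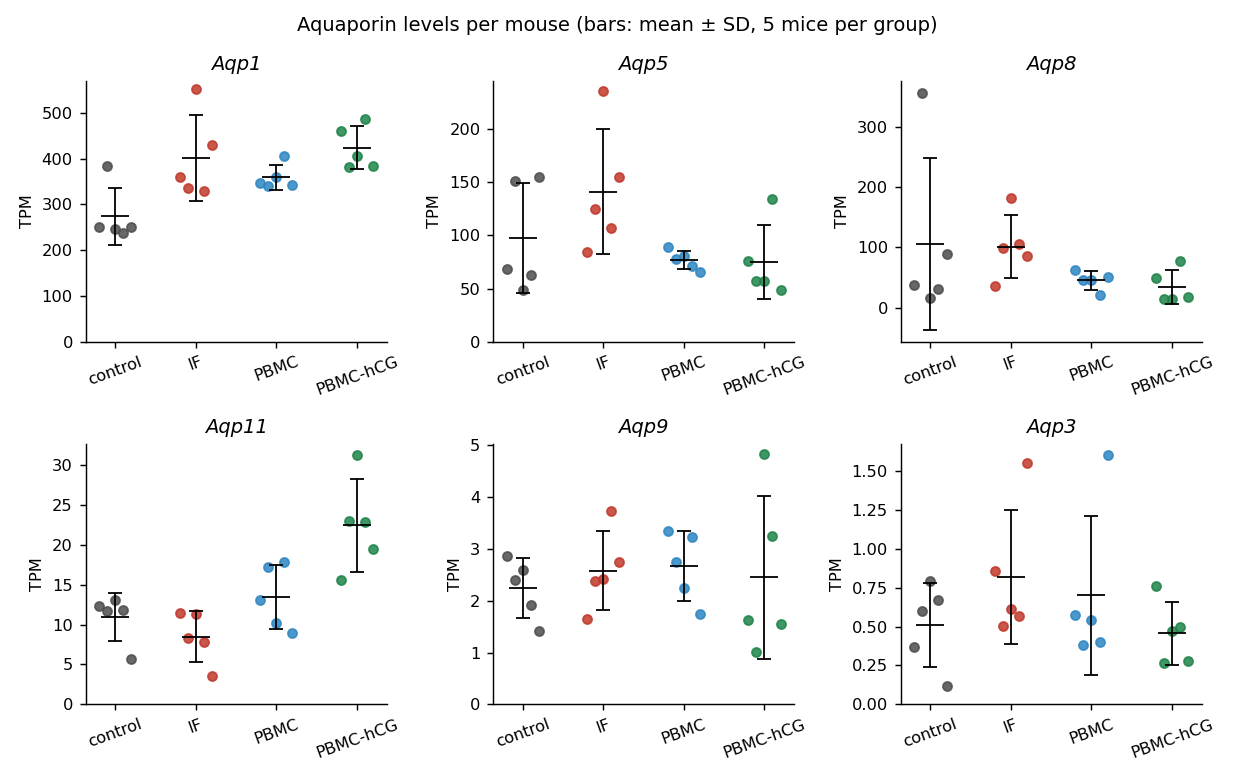
Levels in TPM (vertical axis, linear) of the 6 aquaporin genes that were tested. Each point is 1 mouse, long horizontal marks are group means and the error bars are SD (n = 5). Aqp1 was lowest in the control group apart from 1 mouse at 385 TPM, Aqp11 was highest in the PBMC-hCG group, and 1 control mouse at 356 TPM of Aqp8 draws the lower error bar of that group under 0.

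The first comparison asks how the uterus of pregnant mice injected with RU486 differed from that of untreated mice. *Aqp1* rose in the IF group, and no other member was called. Of the 6 members tested 1 was called, beside 21.9% of all genes tested, and their median log2 fold change was 0.58, beside 0.02 over all genes.

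*Aqp1* encodes the water channel of the endothelium of many tissues, of red cells and of other cells that pass water freely. Its levels in the 5 control mice were 250.4, 385, 247, 238 and 250.6 TPM (mean 274 ± 62.1, SD, n = 5), and in the 5 IF mice 359, 336, 552, 329.5 and 429 TPM (401 ± 93.3). All 5 IF mice were above 4 of the 5 control mice, and control replicate 2 lay among the IF mice, so that the groups overlapped. The fitted rise was 1.46-fold (95% interval 1.19 to 1.79), with a log2 fold change of 0.55 (SE 0.14, adjusted p = 0.00817). Without control replicate 2 it was 0.67 on the log2 scale (adjusted p = 0.000417), and it was called with each of the 20 mice left out in turn. With only the control and IF mice in the fit the adjusted p was 0.0583, so that the call was then lost.

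*Aqp1* was also high in the other groups given RU486. The PBMC mice had 346, 339.7, 361, 405 and 343 TPM (359 ± 27.1), and the PBMC-hCG mice 459, 382, 406, 486 and 385 TPM (424 ± 46.8). All 10 were above 4 of the 5 control mice. Against control, the log2 fold change was 0.41 (SE 0.14, adjusted p = 0.0430) in the PBMC group and 0.65 (SE 0.14, adjusted p = 0.00181) in the PBMC-hCG group, and these comparisons share the control mice with the first. Against control 1 of 6 members was called for PBMC, beside 19.5% of all genes, and 2 of 6 for PBMC-hCG (*Aqp1* and *Aqp11*), beside 31.8%. The call in the PBMC group was lost in 9 of the 10 fits that left out 1 control or PBMC mouse, and of these it was kept without control replicate 2 (0.54, adjusted p = 0.00284). Over all fits with 1 of the 20 mice left out it was kept in 10. Neither PBMC group differed from IF beyond the spread between mice, with log2 fold changes of -0.13 (95% interval -0.42 to 0.16, adjusted p = 0.856) for PBMC and 0.10 (-0.19 to 0.39, adjusted p = 0.635) for PBMC-hCG. Between the 2 PBMC groups, 3 of the 5 PBMC-hCG mice were above the highest PBMC mouse. The log2 fold change was 0.24 (SE 0.14, exact permutation p = 0.0238, adjusted p = 0.374) and was not called.

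Markers of endothelium moved in the same direction as *Aqp1* between groups. Their 7 genes summed to 379 to 517 TPM in the control group and to 581 to 626 TPM in the IF group, and all 7 were called higher in IF, with a median log2 fold change of 0.42. *Pecam1*, an adhesion molecule of endothelial cells, had a log2 fold change of 0.39 (SE 0.05, adjusted p = 4.7e-05), and *Kdr*, a receptor for vascular endothelial growth factor, 0.59 (SE 0.11, adjusted p = 0.000542). The sums were 573 to 667 TPM in the PBMC group and 641 to 723 TPM in the PBMC-hCG group. Among mice of a group, however, with the group means taken off, *Aqp1* and the endothelial sum had a Pearson r of -0.298 (adjusted permutation p = 0.607, n = 20 mice) and a Spearman rho of -0.123 (adjusted permutation p = 0.856). Control replicate 2 had the highest *Aqp1* and the lowest endothelial sum of its group. Of 8 markers of epithelium 6 were called higher and *Cldn3* lower in IF than in control, with a median log2 fold change of 0.37 and sums of 805 to 1424 TPM in control and 1122 to 1426 TPM in IF mice. The r of *Aqp1* with the epithelial sum was 0.520 (adjusted permutation p = 0.229). Of 5 macrophage markers *Csf1r* and *Adgre1* were called higher, with sums of 603 to 821 TPM in control and 598 to 843 TPM in IF mice, and the r of *Aqp1* with that sum was 0.679 (adjusted permutation p = 0.0641). Red cell markers, which also belong to cells rich in AQP1 protein, had 0 of 5 tested genes called by limma in IF against control (0 at an unadjusted p under 0.05). In whole uterus, more cells of a type and more RNA per cell cannot be told apart, and the part of cell composition in the rise of *Aqp1* was not tested.

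*Aqp5* and *Aqp8* were not called in this comparison. *Aqp5* encodes a water channel of the apical membrane of secretory epithelia. It had 68.5, 151, 48.5, 62.7 and 155 TPM in control mice (97.2 ± 51.7) and 84.5, 125, 235, 107 and 155 TPM in IF mice (141 ± 58.6). The control mice fell apart into 2 at 151 and 155 TPM and 3 at or under 68.5 TPM, and all 5 IF mice were above those 3 but overlapped with the 2 high ones. The log2 fold change was 0.61 (SE 0.33, adjusted p = 0.204), and 0.81 (adjusted p = 0.0760) without control replicate 2.

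*Aqp8* encodes a channel for water, and also for ammonia and hydrogen peroxide, that is found in epithelia of the digestive tract. Control mice had 38.0, 356, 15.8, 29.9 and 88.4 TPM (106 ± 143) and IF mice 36.0, 98.0, 181, 105 and 84.8 TPM (101 ± 52.2). Control replicate 2 was above every IF mouse, while 3 of the other control mice were at or under 38.0 TPM. The log2 fold change was 0.66 (SE 0.67, adjusted p = 0.534) with this mouse and 1.33 (SE 0.56, adjusted p = 0.0899) without it.

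*Aqp11* is needed in the kidney, where its loss in mice leads to cysts. Control mice had 12.3, 11.7, 13.1, 11.8 and 5.68 TPM (10.9 ± 2.98) and IF mice 11.4, 8.27, 11.3, 7.86 and 3.58 TPM (8.49 ± 3.21). The ranges overlapped, and the log2 fold change was -0.41 (SE 0.30, adjusted p = 0.363), or -0.37 (adjusted p = 0.436) without control replicate 2. *Aqp9*, an aquaglyceroporin of liver and neutrophils, ranged from 1.41 to 2.87 TPM in control mice and from 1.64 to 3.73 TPM in IF mice, with a log2 fold change of 0.19 (SE 0.33, adjusted p = 0.739). *Aqp3*, an aquaglyceroporin of basolateral membranes in kidney and skin, ranged from 0.119 to 0.793 TPM and from 0.501 to 1.55 TPM, with a log2 fold change of 0.64 (SE 0.40, adjusted p = 0.285).

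**Figure D2:**
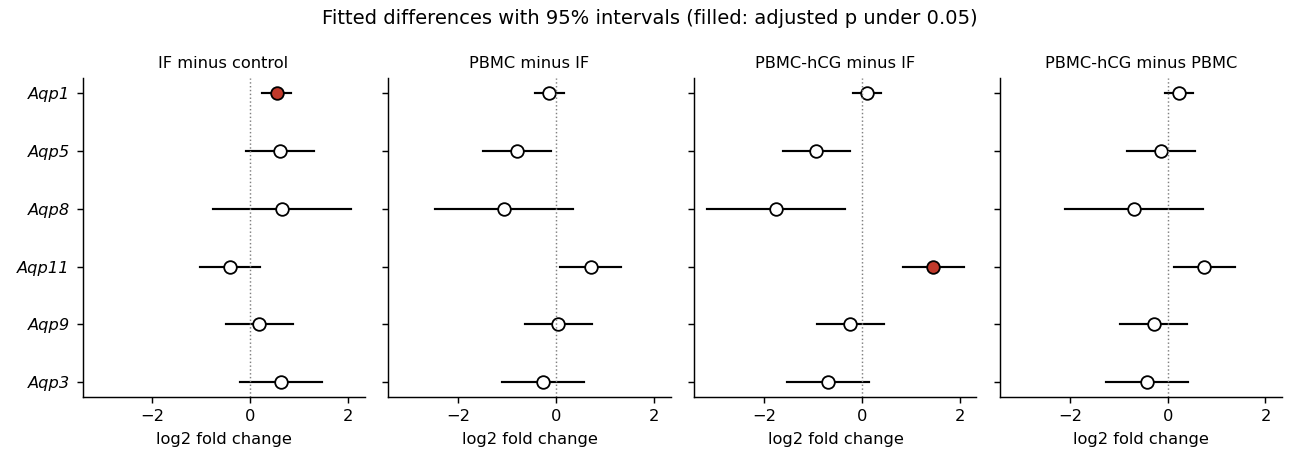
Fitted log2 fold changes (horizontal axis) of the 6 aquaporins tested in 4 comparisons, with lines for the 95% intervals. Filled points had an adjusted p under 0.05, which held for Aqp1 in IF minus control (0.55) and Aqp11 in PBMC-hCG minus IF (1.46). The first 3 panels share the IF mice.

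The next comparisons ask how intrauterine PBMCs changed the uterus of mice given RU486. They share the IF mice with the first comparison and with each other, so a high or low IF mouse moves all of them. With PBMCs cultured without hCG, 0 of the 6 members were called by limma (2 at an unadjusted p under 0.05), beside 0% of all genes tested (1271 genes at an unadjusted p under 0.05). By the exact permutation test given for single members, 2 of 6 had an unadjusted p under 0.05 in PBMC against IF, 3 in PBMC-hCG against IF and 2 in PBMC-hCG against PBMC. That test was not run over all genes, so no share of all genes stands beside these counts. By limma, 2, 3 and 1 of the 6 members had an unadjusted p under 0.05 in the same comparisons, beside 6.79%, 35% and 16.2% of all genes. With PBMCs cultured with hCG, *Aqp11* rose and the other 5 were not called, which is 1 of 6 members beside 13.6% of all genes. The number of genes called in that comparison rested on single mice. Of 18706 genes 2544 were called with all mice, but leaving out IF replicates 2, 4 and 5 in turn gave 8, 14 and 0 genes, and leaving out PBMC-hCG replicates 2, 3, 4 and 5 gave 1, 0, 18 and 34, while 1837 to 5061 were called with another mouse left out. In these 7 fits no member was called, nor any gene of the lists for ion transport, trafficking, the osmotic response, glycerol handling and steroid receptors that are given further on. The median log2 fold change of the members was -0.20 for PBMC and -0.46 for PBMC-hCG, beside 0.02 and 0.05 over all genes.

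*Aqp11* had 15.6, 23.0, 31.3, 22.9 and 19.5 TPM in PBMC-hCG mice (22.4 ± 5.79). The lowest of these was above the highest IF mouse at 11.4 TPM and above the highest control mouse at 13.1 TPM. Such separation of the groups was found in 7.24% of all genes for PBMC-hCG against IF and in 18.3% for PBMC-hCG against control. The fitted rise over IF was 2.75-fold (95% interval 1.79 to 4.24), with a log2 fold change of 1.46 (SE 0.30, adjusted p = 0.0258), and that over control 2.07-fold (1.35 to 3.20), with 1.05 (SE 0.30, adjusted p = 0.0117). The two-sided exact permutation test gave p = 0.00794 for each, the smallest that 5 against 5 mice allow. With 1 mouse left out the log2 fold change over IF stayed between 1.18 and 1.59, but the adjusted p ran from 0.00746 to 0.0919 and was under 0.05 in 3 of the 10 fits that left out an IF or PBMC-hCG mouse and in all 10 that left out a control or PBMC mouse. The rise over control (0.83 to 1.17) was called in all 20 such fits. Of the 7 fits without the call over IF, the adjusted p was 0.0576 without IF replicate 2, 0.0582 without IF replicate 4, 0.0919 without IF replicate 5, and 0.0804, 0.0827, 0.0603 and 0.0534 without PBMC-hCG replicates 2, 3, 4 and 5.

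In PBMC mice *Aqp11* lay between, at 13.1, 17.2, 10.1, 17.9 and 8.98 TPM (13.5 ± 4.02). These values overlapped with those of the IF and the PBMC-hCG groups. The log2 fold change was 0.71 over IF (SE 0.30, exact permutation p = 0.0714, adjusted p = 0.701) and 0.75 for PBMC-hCG over PBMC (SE 0.30, exact permutation p = 0.0317, adjusted p = 0.283), neither called. For PBMC-hCG against PBMC, 0 of 6 members were called by limma (1 at an unadjusted p under 0.05), beside 0.0107% of all genes.

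*Aqp5* had 88.8, 77.4, 81.0, 71.1 and 66.0 TPM in PBMC mice (76.8 ± 8.83) and 76.0, 57.4, 56.7, 134 and 48.4 TPM in PBMC-hCG mice (74.5 ± 34.8). In each group 4 of 5 mice were below the lowest IF mouse at 84.5 TPM. The log2 fold change against IF was -0.79 for PBMC (SE 0.33, exact permutation p = 0.0159, adjusted p = 0.701) and -0.93 for PBMC-hCG (SE 0.33, exact permutation p = 0.0397, adjusted p = 0.0617), and neither passed the adjustment. The latter passed in 3 of 20 fits with 1 mouse left out: without IF replicate 1 (-1.10, adjusted p = 0.0448), without control replicate 5, and without control replicate 2, where the difference was the same and the adjusted p was 0.0411. Against control the differences were -0.18 (SE 0.33, adjusted p = 0.758) and -0.32 (SE 0.33, adjusted p = 0.488).

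*Aqp8* had 63.0, 45.6, 45.2, 21.1 and 50.4 TPM in PBMC mice (45.1 ± 15.2) and 49.0, 14.1, 14.2, 77.2 and 16.8 TPM in PBMC-hCG mice (34.3 ± 28.2). Of these PBMC-hCG mice 3 were below the lowest IF mouse at 36.0 TPM, and replicates 1 and 4 were within the IF range. The fold for PBMC-hCG against IF was 0.296 (95% interval 0.111 to 0.789), with a log2 fold change of -1.76 (SE 0.67, exact permutation p = 0.0397, adjusted p = 0.0790). With the limma fit used here, this met the thresholds of the study, a change of 2-fold or more with an unadjusted p under 0.05, as did *Aqp11*. The study applied these thresholds to counts with edgeR, so its own calls can differ. By the thresholds with limma, 2 of 6 members were counted, beside 2.31% of all genes. In 1 of 20 fits with 1 mouse left out, that without control replicate 2, the adjusted p was 0.0306 at the same difference, as that mouse enters the estimate of the spread alone, and 3 of 6 members were then called. For PBMC against IF the log2 fold change was -1.07 (SE 0.67, exact permutation p = 0.0476, adjusted p = 0.783).

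*Aqp9* and *Aqp3* were not called in any of the 6 comparisons. *Aqp9* ranged from 1.74 to 3.35 TPM in PBMC mice and from 1.003 to 4.83 TPM in PBMC-hCG mice, the widest spread of the groups, and its log2 fold change against IF was 0.05 (SE 0.33, adjusted p = 0.984) and -0.24 (SE 0.33, adjusted p = 0.638). *Aqp3* ranged from 0.382 to 1.60 TPM and from 0.269 to 0.763 TPM, with log2 fold changes of -0.27 (SE 0.40, adjusted p = 0.910) and -0.69 (SE 0.40, adjusted p = 0.225). At levels near 0.1 TPM the added constant draws the fold changes of *Aqp3* toward 0.

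The 9 members summed to 491 ± 243 TPM in control, 655 ± 195 TPM in IF, 498 ± 20.3 TPM in PBMC and 558 ± 107 TPM in PBMC-hCG mice (SD, n = 5). *Aqp1* made up 60.8% ± 13.9 of this sum in control mice, 62.2% ± 6.47 in IF, 72.1% ± 3.98 in PBMC and 76.8% ± 5.75 in PBMC-hCG mice. The share of *Aqp8* was 16.1% ± 13.7, 14.9% ± 4.94, 9.09% ± 3.07 and 5.61% ± 3.57, and that of *Aqp11* was 2.63% ± 1.32, 1.37% ± 0.642, 2.70% ± 0.774 and 4.16% ± 1.38, in the same order. These shares are descriptions with no test.

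Mice of the control, IF and PBMC-hCG groups differed widely in *Aqp5* and *Aqp8*, while *Aqp5* ran only from 66.0 to 88.8 TPM in the PBMC group. Over the 20 mice the pair varied together. With the group means taken off, their log2 levels had a Pearson r of 0.864 over 20 mice (permutation p = 5e-05, adjusted p = 0.00075) and a Spearman rho of 0.815 (adjusted permutation p = 0.00615), and r was 0.872 without the 2 mice farthest from the median. Of 15 pairs of members, 3 had an adjusted p under 0.05 for r. The other pairs were *Aqp1* with *Aqp5* (r = 0.707, adjusted p = 0.0099, rho = 0.707, adjusted permutation p = 0.0199) and *Aqp1* with *Aqp8* (r = 0.646, adjusted p = 0.0455, rho = 0.498, adjusted permutation p = 0.199). The latter rested on few mice, as r fell to 0.362 without the 2 farthest, and for *Aqp1* with *Aqp5* it was 0.547. In the PBMC group *Aqp1* and *Aqp8* did not go together: the mouse with the lowest *Aqp8*, replicate 4 at 21.1 TPM, had the highest *Aqp1* of its group, at 405 TPM, with *Aqp5* low in the group's range at 71.1 TPM. *Aqp11* was not among these pairs, with r of 0.07 with *Aqp1*, -0.27 with *Aqp5* and -0.26 with *Aqp8* and adjusted permutation p-values of 0.926, 0.750 and 0.750.

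The same 3 genes followed the summed markers of the uterine glands, secretory tubes whose products feed the embryo before it attaches. The summed level of the 5 gland markers was 1459, 23928, 1249.7, 1545 and 7734 TPM in the control mice, 2898, 2821, 12203, 2635 and 6214 TPM in the IF mice, 1677, 3225, 2922, 3746 and 2424 TPM in the PBMC mice, and 4116, 4020.2, 3790.5, 10179 and 4066 TPM in the PBMC-hCG mice. The mouse with the highest sum was also the mouse with the highest *Aqp8* in the control, IF and PBMC-hCG groups. The PBMC group went the other way. There replicate 4, with the highest sum, had the lowest *Aqp8* (21.1 TPM). Replicate 1, with the lowest sum, had the highest *Aqp8* (63.0 TPM) and the highest *Aqp5* (88.8 TPM). With the group means taken off, the r with the gland sum was 0.844 for *Aqp5* (adjusted permutation p = 0.0192, rho = 0.788), 0.819 for *Aqp1* (adjusted permutation p = 0.00312, rho = 0.738) and 0.765 for *Aqp8* (adjusted permutation p = 0.0378, rho = 0.573, whose adjusted p was 0.200). Without the 2 mice farthest from the median these were 0.814, 0.615 and 0.570. Relations of the 6 members with 13 marker lists were computed after their levels had been seen, and 7 of the 78 had an adjusted p under 0.05.

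Between groups, few gland markers were called. In IF against control, *Foxa2*, a transcription factor of gland cells, was lower (log2 fold change -0.89, SE 0.20, adjusted p = 0.00366) and the other 4 were not called, and in PBMC-hCG against IF 0 of 5 were called by limma (0 at an unadjusted p under 0.05). The median sums were 1545, 2898, 2922 and 4066 TPM in control, IF, PBMC and PBMC-hCG mice. All PBMC-hCG sums were above all PBMC sums, and among single genes tested 3.46% had these groups apart. The median log2 fold change of the 5 markers was 0.69 in that comparison, with 0 of 5 called by limma (0 at an unadjusted p under 0.05). *Prss29*, a secreted protease of the glands, had 3732 ± 5867 TPM in control and 2454 ± 2077 TPM in IF mice. The sums add TPM without weights, so abundant secreted products such as this one count most in them. They are therefore not a measure of gland content alone, and no r with a single gland marker is given here. The part of gland content in the differences of *Aqp5* and *Aqp8* was not tested.

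**Figure D3:**
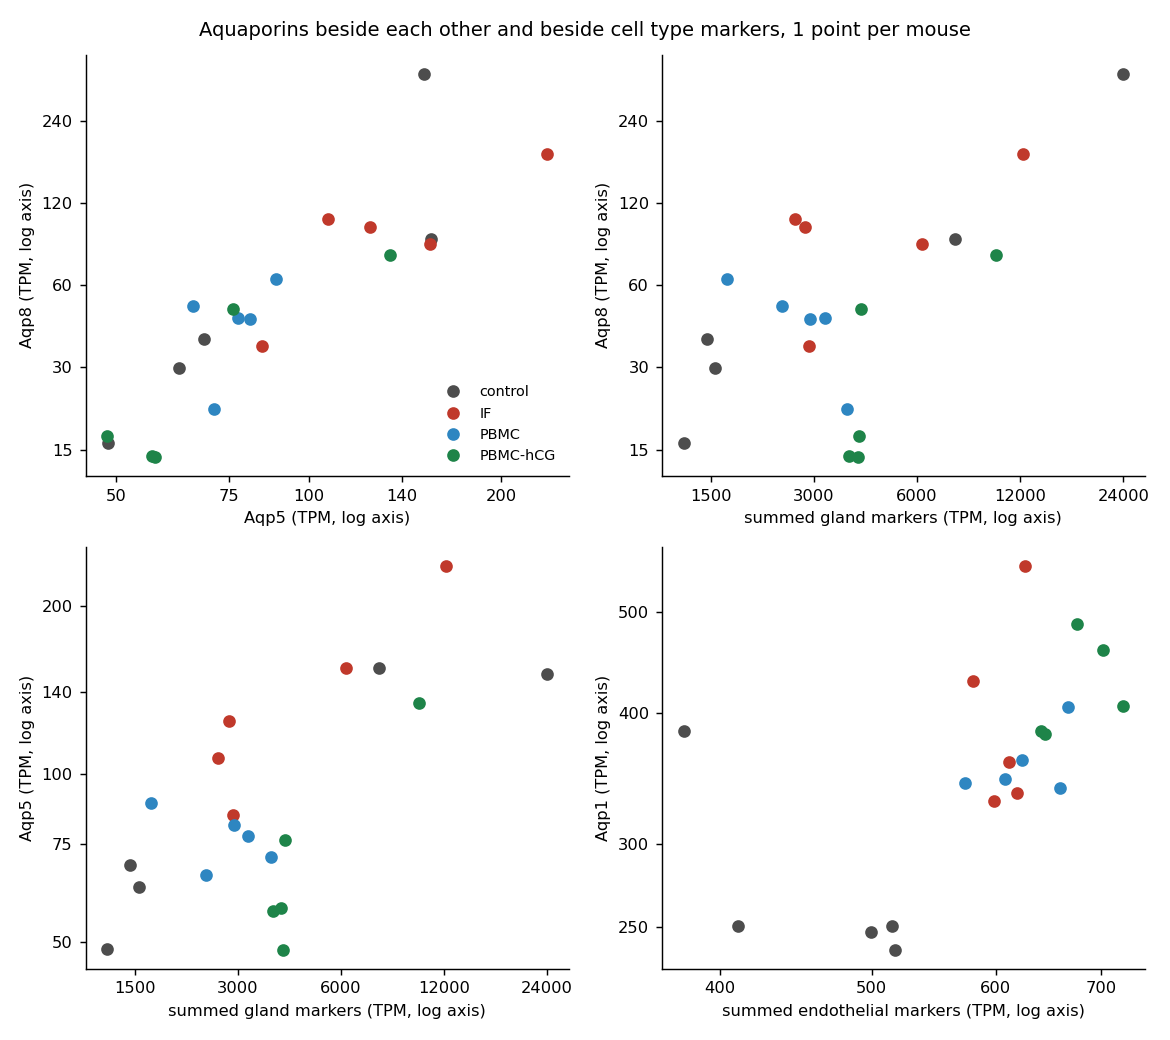
Levels per mouse on log axes (TPM), 1 point per mouse in the colour of its group. Aqp8 rose with Aqp5 (top left, r = 0.864 with group means taken off), and both rose with the summed gland markers (top right and bottom left), though not inside the PBMC group. In these panels 1 control mouse reached 23928 TPM of gland markers. Aqp1 against the summed endothelial markers (bottom right) shows the control mice apart from the others with no common slope inside the groups (r = -0.298).

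*Aqp9* followed the markers of neutrophils, cells in which AQP9 is abundant. The 6 markers summed to 72.4 to 168 TPM in control, 100.3 to 207 TPM in IF, 137 to 259.9 TPM in PBMC and 57.4 to 357 TPM in PBMC-hCG mice. In the PBMC-hCG group replicate 3 was highest and replicate 2 lowest in both measures. The r was 0.917 with the group means taken off (adjusted permutation p = 0.00156, rho = 0.881), and 0.837 without the 2 farthest mice. The other relations with an adjusted p under 0.05 for r were *Aqp1* with stroma (-0.762), *Aqp11* with lymphocytes (0.680) and *Aqp11* with smooth muscle (-0.624), each with an adjusted permutation p of 0.0378, and their adjusted p-values for rho were 0.0844, 0.0694 and 0.119.

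The levels of such markers between groups are given beside *Aqp11*. Lymphocyte markers summed to 26.6 to 42.8 TPM in IF and 36.6 to 43.9 TPM in PBMC-hCG mice, which overlapped. Of the 5 tested 0 were called by limma in PBMC-hCG against IF (1 at an unadjusted p under 0.05). Smooth muscle markers summed to 4538 to 5759.8 TPM and 3478 to 4467 TPM, which did not overlap. Of these, 0 of 5 were called by limma against IF (3 at an unadjusted p under 0.05) and 4 of 5 were called lower against control. Endothelial markers summed to 581 to 626 TPM and 641 to 723 TPM, which did not overlap either, and 1 of 7, *Emcn*, was called (0.29, SE 0.07, adjusted p = 0.0287). Among single genes tested, 7.24% had the PBMC-hCG and IF groups apart in this way. With the group means taken off, the rho of *Aqp11* with the endothelial sum was 0.615 (adjusted permutation p = 0.0255) and r was 0.487 (adjusted permutation p = 0.119). Markers of mesothelium, the outer lining of the uterus, were higher in PBMC-hCG than in IF for 4 of 5 genes, among them *Msln* (log2 fold change 0.82, SE 0.22, adjusted p = 0.0315). Their sums overlapped, at 121 to 156 TPM in IF and 143 to 194 TPM in PBMC-hCG mice. With the group means taken off, *Aqp11* and the mesothelial sum had a negative r of -0.442 (adjusted permutation p = 0.256) and a rho of -0.423 (adjusted permutation p = 0.357). The part of any of these cell types in the rise of *Aqp11* was not tested.

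Other genes had patterns close to those of single members over the 20 mice, among 15770 genes of at least 1 TPM. *Aqp1* was most like *Tpcn1* (r = 0.945), which encodes an endolysosomal cation channel, and *Tns2* (0.928), among the genes given here. *Aqp5* was most like *Tmem213* (0.934), *Prss12* (0.904) and *Pck1* (0.892), the last encoding an enzyme of gluconeogenesis. *Aqp8* was most like *Slc35g1* (0.914), *Gjb1* (0.906), which encodes a gap junction protein, and *Sftpd* (0.893), which encodes surfactant protein D. *Aqp9* was most like *Cyp4f18* (0.903), *P2rx1* (0.895) and *Retnlg* (0.895), the last being 1 of the neutrophil markers. *Aqp11* was most like *Ankrd29* (0.959), *Spata7* (0.944) and *Cyp39a1* (0.943), the last encoding an oxysterol hydroxylase. These correlations over all mice hold the differences between groups as well as those within them and are given with no test.

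Water follows ions, and the ion transport genes of the epithelium are given for comparison. Of 18 such genes 17 were tested, and in IF against control 2 were higher and 4 lower, beside 21.9% of all genes called. Their median log2 fold change was -0.10, beside 0.02 over all genes. *Atp1b1*, a regulatory subunit of the sodium pump, was lower (log2 fold change -0.36, SE 0.11, adjusted p = 0.0269). *Fxyd4*, a small modulator of the pump, fell from 64.8 ± 35.2 to 18.5 ± 11.4 TPM (-1.76, SE 0.39, adjusted p = 0.00280). *Car2*, a carbonic anhydrase (-0.90, SE 0.29, adjusted p = 0.0326), and *Slc4a4*, a bicarbonate transporter (-0.49, SE 0.13, adjusted p = 0.00983), were also lower. *Cftr*, the chloride channel, stood at 0.438 ± 0.309 TPM in control and 0.408 ± 0.153 TPM in IF mice and was not called.

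In PBMC-hCG against IF, 4 of the 17 ion transport genes were higher and 3 lower, beside 13.6% of all genes called. Their median was 0.10 beside 0.05. *Scnn1b*, a subunit of the epithelial sodium channel, rose from 4.77 ± 2.03 to 9.72 ± 1.12 TPM (1.12, SE 0.30, adjusted p = 0.0313). *Fxyd4* rose to 46.1 ± 9.32 TPM (1.48, SE 0.39, adjusted p = 0.0307), and *Ano1*, a calcium-activated chloride channel, rose from 51.6 ± 8.08 to 73.4 ± 5.64 TPM (0.52, SE 0.12, adjusted p = 0.0287). *Car12*, a membrane carbonic anhydrase, fell from 214 ± 53.5 to 114 ± 40.3 TPM (-0.93, SE 0.24, adjusted p = 0.0292). *Sgk1*, a kinase that keeps the epithelial sodium channel at the membrane, fell from 70.5 ± 12.4 to 35.3 ± 12.5 TPM (-1.06, SE 0.26, adjusted p = 0.0287). Control mice had 41.5 ± 11.7 TPM of *Sgk1*, and it was called higher in IF than in control (0.79, SE 0.26, adjusted p = 0.0380). In PBMC against IF, 0 of the 17 were called by limma (2 at an unadjusted p under 0.05).

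**Figure D4:**
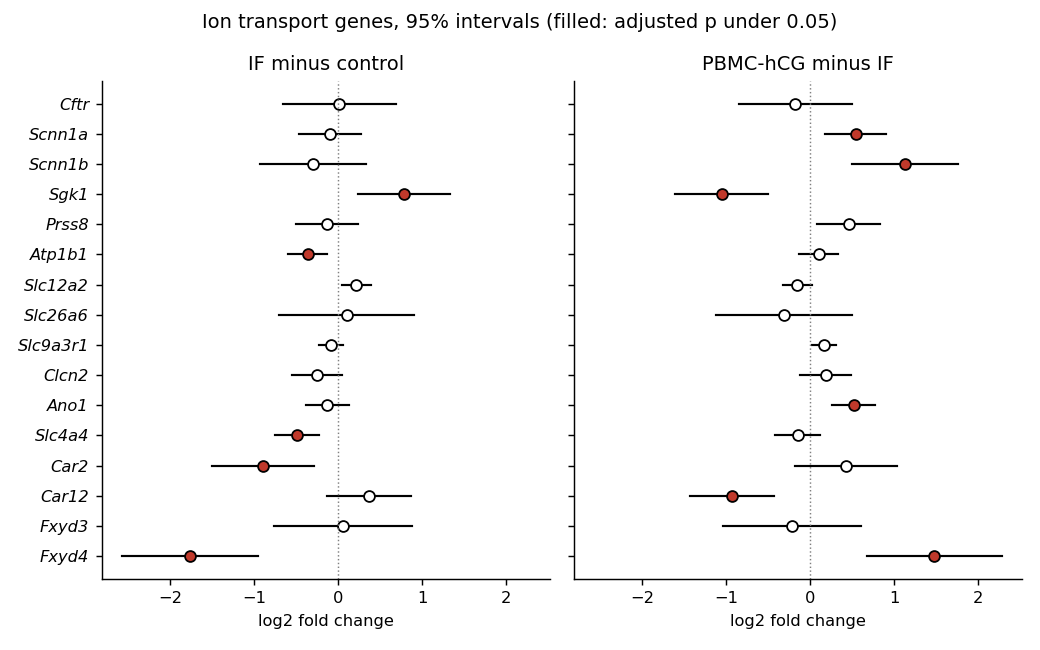
Fitted log2 fold changes (horizontal axis) of 16 of the 17 ion transport genes tested, with lines for 95% intervals and filled points for an adjusted p under 0.05. Fxyd4 was called lower in IF minus control (-1.76) and higher in PBMC-hCG minus IF (1.48). Both panels share the IF mice.

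Trafficking to the membrane controls aquaporins after transcription. In IF against control, where 21.9% of all genes were called, 3 of 13 tested genes for its signals and carriers were called, all higher. These were *Oxtr*, the oxytocin receptor (log2 fold change 3.92, SE 0.47, adjusted p = 1.02e-05), *Ppp3ca*, a subunit of calcineurin (0.72, SE 0.11, adjusted p = 0.000102), and *Ezr*, a linker of membrane and actin (0.49, SE 0.10, adjusted p = 0.00177). In PBMC-hCG against IF, where 13.6% of all genes were called, *Oxtr* was lower (-2.05, SE 0.47, adjusted p = 0.0277) and *Avpr1a*, a vasopressin receptor, higher (0.41, SE 0.13, adjusted p = 0.0470). Of 9 tested genes of the response to osmotic stress, 3 were higher and 2 lower in IF. Among them *Nfat5*, the transcription factor of that response, rose from 19.6 ± 1.59 to 28.3 ± 3.46 TPM (0.52, SE 0.08, adjusted p = 0.000194) and *Akr1b3*, which makes the osmolyte sorbitol, was lower (-0.49, SE 0.13, adjusted p = 0.0136). In PBMC-hCG against IF 1 was called, the taurine transporter gene *Slc6a6* (0.35, SE 0.09, adjusted p = 0.0322).

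In IF against control, where 21.9% of all genes were called, 3 of 9 tested genes of glycerol handling were higher and 1 lower. These were *Plin2*, a coat protein of lipid droplets (0.40, SE 0.08, adjusted p = 0.000953), *Gpd2* (0.31, SE 0.11, adjusted p = 0.0396), a glycerol-3-phosphate dehydrogenase, *Lpl*, the lipoprotein lipase (0.91, SE 0.26, adjusted p = 0.0173), and, lower, *Gpd1l* (-0.35, SE 0.11, adjusted p = 0.0265). *Gpd1l* alone was called in PBMC-hCG against IF (0.39, SE 0.11, adjusted p = 0.0342), beside 13.6% of all genes. The aquaglyceroporin genes *Aqp3* and *Aqp9* were called in neither comparison.

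Of 16 tested steroid receptor genes and uterine targets, 2 were higher and 2 lower in IF, beside 21.9% of all genes called. *Pgr*, the progesterone receptor, rose from 45.9 ± 6.49 to 150.0 ± 16.2 TPM (1.71, SE 0.14, adjusted p = 1.44e-07), and *Esr1*, the estrogen receptor alpha, was higher (0.51, SE 0.06, adjusted p = 5.98e-06). The homeobox genes *Hoxa10* (-0.92, SE 0.13, adjusted p = 8.34e-05) and *Hoxa11* (-1.09, SE 0.12, adjusted p = 3.96e-06) were lower. In PBMC-hCG against IF, where 13.6% of all genes were called, 4 were higher and 1 lower. Among them were *Nr3c1*, the glucocorticoid receptor (0.39, SE 0.08, adjusted p = 0.0258), and, lower, *Lcn2*, a secreted lipocalin (-1.30, SE 0.40, adjusted p = 0.0417).

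Genes beside the aquaporins on their chromosomes were looked at as well. *Aldh1a2*, which makes retinoic acid and lies 47939 bases from *Aqp9*, was higher in IF than in control (0.79, SE 0.20, adjusted p = 0.00763) and lower in PBMC-hCG than in IF (-0.79, SE 0.20, adjusted p = 0.0289), while *Aqp9* was called in neither. Beside *Aqp11*, *Pak1*, a protein kinase gene at 50293 bases, was higher in PBMC-hCG than in IF (0.52, SE 0.15, adjusted p = 0.0343), and *Clns1a*, at 5585 bases, was not called (-0.21, SE 0.10, adjusted p = 0.145). Beside *Aqp1*, *Mindy4* was not called in IF against control (-0.04, SE 0.24, adjusted p = 0.927), and *Ghrhr* was near 0 at a mean of 0.0336 TPM. The cluster of *Aqp5* held genes with means of 0.0147 TPM (*Aqp2*) and 0.0122 TPM (*Aqp6*) beside the 97.5 TPM of *Aqp5* itself.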

How the data were processed

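RNA of uterine tissue from 20 mice, 5 in each of 4 groups, was analysed. Groups and replicate numbers were taken from the sample labels. The authors deposited TPM values, made from stranded mRNA libraries with Trimmomatic, HISAT2 (genome mm10) and StringTie, with no versions or strand setting given in the sources used here. Totals were 999989 to 999999 TPM, which leaves the depth and the counting error of each value unknown. Genes above 0 TPM numbered 22702 to 24097 per library. No columns were identical. Nothing in the sources used here names a sequencing batch.

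For 18706 genes (those above 0 TPM in every library) log2(TPM + 0.1) was modelled in R 4.3.3 by limma 3.58.1 with all 4 groups and a trend of the variance, and Benjamini-Hochberg adjustment was made separately for each comparison. The study tested counts, which TPM do not give back. Single members were also compared by two-sided exact permutation over 252 arrangements, and correlations by 100000 permutations within groups. The fit was tested on simulated data. Alternatives were other pseudocounts, filters, scalings, fits and each mouse left out.

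The 9 members and all gene lists were chosen with earlier results of these data known. Named genes were all members, of each pathway list up to 5 called genes with the smallest p, for each member of at least 1 TPM the 3 most similar genes, and protein-coding neighbours, of which some are given. *Cftr*, the marker genes and *Sgk1* in IF against control were named beside this rule after their values were seen. Certain genes that the rule names are not reported here. Sequences and positions are from RefSeq (GRCm38.p6), and all 9 members were matched there by symbol.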

Additional observations from a re-analysis of the deposited data

Results flagged for a closer look

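Within the 4 groups of 5 mice, the levels of the 6 tested members gave 24 sets of values, and in 4 of them 1 mouse lay far from the rest by Dixon's criterion, which chance meets in about 1 of 20 sets. *Aqp1* in control replicate 2 was at 385 TPM, with the nearest control mouse at 250.6 TPM. *Aqp8* in the same mouse was at 356 TPM, with the nearest at 88.4 TPM. *Aqp11* in control replicate 5 was at 5.68 TPM, below the nearest at 11.7 TPM. *Aqp3* in PBMC replicate 5 was at 1.60 TPM, with the nearest at 0.574 TPM. No called difference of a member against control was lost when control replicate 2 was left out, and the rise of *Aqp1* in IF was then 0.67 on the log2 scale.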

How the results depend on the processing

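TPM carry no depth, so low values such as those of *Aqp3* have an unknown counting error, and 5 mice per group limit what adjustment over 18706 genes can show. Counted here were the other settings, the fits without 1 mouse of the groups compared, and the exact permutation test at its unadjusted p. Of these, 704 log2 fold changes of members kept their direction and side of the threshold, 22 lost a call, 7 newly passed the threshold and 17 changed sign. In the limma fits the only new pass was *Aqp5* in PBMC-hCG against IF, without IF replicate 1. The rest of the 7 rested on the unadjusted exact p. Fits without a mouse of another group are not in these counts. The number of members called was 0 in IF against control with only the 2 groups in the fit (*Aqp1* 0.55, adjusted p = 0.0583). It was 0 in PBMC against control with no filter, with median-ratio scaling, with only the 2 groups in the fit, with no variance trend and with the replicate block. The exact permutation test was run for members only, so no share of all genes stands beside its counts, and its unadjusted p is not a call here. Members with such a p under 0.05 were 2 in PBMC against IF, 3 in PBMC-hCG against IF and 2 in PBMC-hCG against PBMC. With 1 mouse of the groups compared left out, the number of members called ran from 0 to 2 in PBMC-hCG against IF and from 0 to 1 in PBMC against control. With any of the 20 left out it ran from 0 to 3 in PBMC-hCG against IF, with 3 without control replicate 2. The number of all genes called there ran from 0 to 5061. The cause was not tested. The rise of *Aqp11* in PBMC-hCG over IF was called under all 10 other settings of the limma fit (adjusted p 0.0140 to 0.0415). Sign changes occurred only where 1 mouse was left out, in differences that were not called: *Aqp9* in PBMC against IF (-0.094 to 0.19), in PBMC-hCG against IF (-0.53 to 0.012) and against control (-0.34 to 0.20), *Aqp5* (-0.39 to 0.028) and *Aqp8* (-0.86 to 0.26) in PBMC against control, and *Aqp3* in PBMC-hCG against control (-0.39 to 0.12). Of the 15 correlations between members, that of *Aqp3* and *Aqp9* changed sign with a pseudocount of 1 (r = -0.0269 against 0.0908).

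The groups share replicate numbers 1 to 5, but mice of the same number did not deviate together: 8 of 30 such pairs had a correlation over 0.1 (median -0.0097), and 12 of 60 comparisons of a library with another group were best with its own number. With the number as a replicate block, the call of *Aqp1* in PBMC against control was lost (0.41, adjusted p = 0.0728), and the number of members called was the same in the other 5 comparisons.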
